A study of Mus musculus with 5 samples.

Results

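The chemokine ligand family was followed across 5 Affymetrix arrays of mouse mammary epithelial cells. Members were the gene symbols beginning Ccl or Cxcl and a number, with Cx3cl1 and Xcl1, that had a probe set annotated to that symbol alone. This gave 33 genes of 22180 tested, 1 probe set each, beside 1 further symbol that is not reported here. The rule reads symbols, not values, but it was set with earlier results of these data known. Both genotypes were on a congenic FVB/NJ background, carried floxed Mmp14 alleles, written Mmp14(f/f), and were sampled at 4 weeks of age. The knockout group (2 arrays) also carried the MMTV-Cre transgene, in which a mammary tumour virus promoter active in mammary epithelium drives the recombinase. The wild-type group (3 arrays) were littermates labelled Mmp14(f/f) with no Cre. Inguinal glands, with the lymph node taken out, were digested with collagenase and spun to deplete stroma. The labels do not state if an array stands for 1 mouse or for pooled mice, and every p-value below rests on the spread between these 5 samples alone.

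Chemokines are small secreted proteins that bind G protein-coupled receptors and steer the movement of leukocytes. They are grouped by the spacing of their first cysteines into CC, CXC, C and CX3C types. The CXC ligands with an ELR motif before the cysteines call in neutrophils through Cxcr2, the interferon-inducible ones act on activated T cells through Cxcr3, and the monocyte chemoattractants act through Ccr2. In the developing mammary gland, macrophages and eosinophils drawn by such signals take part in ductal growth, and several metalloproteinases, MMP14 among them, can clip chemokines such as CXCL12.

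Many inducible chemokine promoters carry sites for NF-kappaB, a factor activated by inflammatory cytokines, and interferon-stimulated response elements. The promoters of 6 CXC genes from both CXC clusters of chromosome 5 are given. Cxcl1, Cxcl2 and Cxcl3 read lowest on the same pair of arrays, described below, though Cxcl1 only narrowly. Cxcl15, which lies among them, did not. Cxcl9 and Cxcl10 are neighbours in the other cluster and were lowest on that pair too, and they differ in the motifs found. Each is the 250 bases before the start in RefSeq's table (GRCm38.p6), 5′ to 3′ on the gene's strand. The capitals mark matches on either strand to the NF-kappaB motif searched, GGG and TTCC with any 3 letters between them. In Cxcl10 the first capital run is instead a match to the interferon element, GAAA and GAAA with any 2 letters between, which was also searched on both strands.

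Cxcl1, chr5:90890995-90891244, plus strand: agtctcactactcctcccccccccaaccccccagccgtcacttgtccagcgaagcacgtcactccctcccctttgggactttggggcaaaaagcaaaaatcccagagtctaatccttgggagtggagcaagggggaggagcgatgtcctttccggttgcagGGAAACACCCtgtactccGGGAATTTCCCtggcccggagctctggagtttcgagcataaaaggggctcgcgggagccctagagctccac
Cxcl2, chr5:90903649-90903898, plus strand: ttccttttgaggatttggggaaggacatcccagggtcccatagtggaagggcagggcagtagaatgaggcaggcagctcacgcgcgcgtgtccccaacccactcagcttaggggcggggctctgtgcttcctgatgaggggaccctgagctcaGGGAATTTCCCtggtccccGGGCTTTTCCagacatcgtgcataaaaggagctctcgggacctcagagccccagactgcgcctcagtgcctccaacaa
Cxcl3, chr5:90785851-90786100, plus strand: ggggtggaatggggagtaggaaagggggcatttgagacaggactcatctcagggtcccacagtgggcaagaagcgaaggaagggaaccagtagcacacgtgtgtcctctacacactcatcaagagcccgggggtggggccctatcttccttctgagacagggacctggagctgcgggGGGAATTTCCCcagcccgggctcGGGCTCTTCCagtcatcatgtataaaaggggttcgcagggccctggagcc
Cxcl9, chr5:92328080-92328329, minus strand: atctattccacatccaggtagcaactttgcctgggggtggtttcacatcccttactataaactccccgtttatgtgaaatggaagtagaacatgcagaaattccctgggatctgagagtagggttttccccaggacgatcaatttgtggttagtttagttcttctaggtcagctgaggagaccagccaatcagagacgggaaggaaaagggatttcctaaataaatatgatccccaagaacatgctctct
Cxcl10, chr5:92348890-92349139, minus strand: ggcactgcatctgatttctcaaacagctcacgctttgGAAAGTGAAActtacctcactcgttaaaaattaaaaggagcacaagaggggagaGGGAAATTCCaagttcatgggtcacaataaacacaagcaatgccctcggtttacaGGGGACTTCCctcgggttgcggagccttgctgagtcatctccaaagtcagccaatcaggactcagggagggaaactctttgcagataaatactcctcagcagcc
Cxcl15, chr5:90794284-90794533, plus strand: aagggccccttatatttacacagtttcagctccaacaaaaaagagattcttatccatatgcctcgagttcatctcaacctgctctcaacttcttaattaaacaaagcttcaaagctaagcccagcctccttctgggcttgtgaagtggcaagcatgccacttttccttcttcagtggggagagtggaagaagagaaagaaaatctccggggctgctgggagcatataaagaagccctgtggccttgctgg

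In Cxcl1, Cxcl2 and Cxcl3 the same letters, GGGAATTTCC, were found. Counted back from the start, they lay from -71 to -62 in Cxcl1, from -97 to -88 in Cxcl2 and from -73 to -64 in Cxcl3, each with 1 further matching stretch within the window. Cxcl10 held 2 separate matches, and the windows of Cxcl9 and Cxcl15 held none. RefSeq's table gave a promoter for 22 of the 33 members. It gave none for Ccl2, Ccl4, Ccl5, Ccl7, Ccl11, Ccl24, Ccl26, Cxcl5, Cxcl11, Cxcl16 or Cxcl17. The NF-kappaB motif was found in 7 of the 22, namely these 4 genes with Ccl1, Ccl9 and Ccl20, and in 4.6% of 27025 mouse promoters. On its reverse strand it partly overlaps itself, so overlapping matches were taken as 1 stretch. The interferon element was found in Cxcl10 and Cxcl14, and in 3.04% of all promoters. The AP-1 motif TGANTCA was found in Ccl9 and Cxcl10 (6.87% of all promoters), and TATAAA, searched on the gene's strand, in 7 of the 22 (8.12% of all). These are matches of letters in 1 window, not measured binding.

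The table values are log2 signals per probe set. The median signal of an array was 4.24 to 4.29. Without detection calls, a low signal may be background, and 5 arrays give limited precision. The targeted gene Mmp14 read 7.98 and 7.28 in the knockout and 8.15, 8.67 and 7.75 in the wild type, so the groups overlapped (-0.56 ± 0.39 SE). Whether its probes fall inside the floxed part is not stated in the labels, so this is no check of them. Luminal Krt8 read 11.34 to 11.48 and basal Krt14 8.96 to 9.29, but the fibroblast gene Dcn read 10.21 to 10.71 and the endothelial gene Pecam1 7.64 to 8.80, so RNA of stromal cells was in the preparations. Bulk arrays cannot separate fewer cells of a type from less RNA per cell. The array numbers in the labels fall into 2 unbroken stretches, called runs here, whose meaning the labels leave unsaid. Knockout 1 and wild type 1 and 2 make up run 1, and knockout 2 and wild type 3 make up run 2.

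The first question was whether epithelial loss of Mmp14 altered the chemokine ligands. By limma at an adjusted p of 0.05, 0 of the 33 were called and 0% of all genes, with 0.919 as the lowest adjusted p in the family. At an unadjusted p under 0.05 the count was 0 of 33, against 1.3% of all genes (288 genes). The mean was lower in the knockout for 23 ligands (69.7%) and higher for 10, where 49.5% and 46.3% of all genes were lower and higher. The median difference was -0.06 log2 units for the ligands and 0.00 for all genes. It was -0.11 within run 1 and 0.00 within run 2. The sign of the median turned to 0.04 without knockout 2 and to 0.0040 without wild type 2. The groups did not overlap for 3 ligands (5.43% of all genes): Cx3cl1 was higher in the knockout (2.63% of all genes were), and Ccl25 and Ccl6 were lower (2.8% were). Among genes with 5 different values those shares were 5.37% and 5.7%, so these counts are near the background. With 1 array left out, the ligands without overlap numbered 14 without knockout 1 (46.3% of all genes), 10 without knockout 2 (37.6%), 5 without wild type 1 (9.01%), 6 without wild type 2 (12.5%) and 10 without wild type 3 (12.7%). Within run 1, knockout 1 lay outside the range of both wild-type arrays for 17 ligands and 46.6% of all genes.

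**Figure D1:**
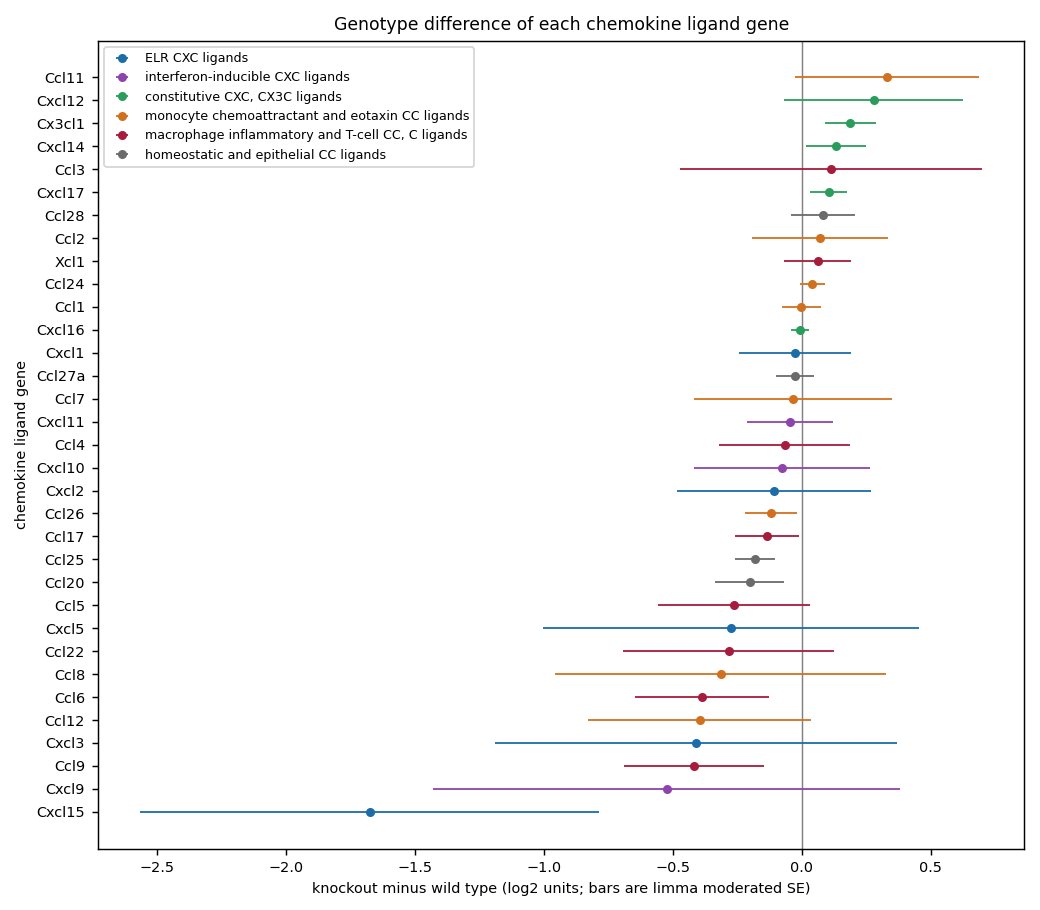
Difference of knockout minus wild type in log2 units (horizontal axis) for each of the 33 ligands (vertical axis, sorted), with bars of limma's moderated SE from 2 knockout and 3 wild-type arrays. Cxcl15 stands farthest from 0 at -1.68, and 23 of the 33 points lie below 0.

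The ligands varied widely between arrays of 1 genotype, and their differences had wide errors. The median SE was 0.26 log2 units for the ligands and 0.07 for all genes. The median range over the 5 arrays was 0.77, against 0.21 for all genes and 0.37 for the 6930 genes (31.2%) with 5 different values, which 25 of the 33 ligands had. A range of 1 log2 unit or more, a doubling, was reached by 11 ligands (33.3%) and by 2.15% of all genes. Genes with equal values on several arrays are common in this table and narrow that background. Among genes with 5 different values, the range reached 1 in 11 of 25 ligands and in 5.51% of genes.

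The ELR CXC ligands, the neutrophil attractants, all had a lower mean in the knockout, and none passed the test. Cxcl15, also called lungkine, had the widest range of all ligands. Its signal (probe set 17438980) was 7.54 in knockout 1 and 5.19 in knockout 2, against 8.72, 7.50 and 7.90 in wild type 1 to 3. Knockout 2 alone was low, at -2.36 relative to knockout 1, while knockout 1 lay inside the wild-type range. The 5 arrays spanned 11.6-fold. The difference of -1.68 ± 0.89 (SE; limma adjusted p = 0.919) ranked 4 by size among the 22180 genes, and Cxcl15 was the only ligand with means 1.5-fold or more apart, as 0.365% of genes were. Within run 1 the difference was -0.57 and within run 2, from 1 array per genotype, -2.72.

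Cxcl5 (probe set 17438955) and Cxcl3 (17438975) instead separated the runs. Cxcl5 read 8.09 in knockout 1 and 7.03 in knockout 2, and 8.04, 8.67 and 6.79 in wild type 1 to 3. The signals of Cxcl3 in the same order were 7.47 and 6.43, then 7.71, 8.19 and 6.19. In both genes knockout 2 and wild type 3 were over 1 log2 unit below the other arrays, and the genotypes overlapped. Knockout minus wild type was -0.27 ± 0.73 for Cxcl5 and -0.41 ± 0.78 for Cxcl3 (SE), and within run 2 both differences were above 0, at 0.24 and 0.25.

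Cxcl2 (probe set 17438995) followed the same order with a smaller spread. It read 9.86 and 9.47 in the knockout and 9.86, 10.26 and 9.21 in the wild type. Cxcl1 lay between 9.29 and 9.94 over the arrays, with wild type 3 lowest. Its knockout 2 signal, at 9.59, was only just below knockout 1, at 9.62. The genotype differences of these closely related ligands were -0.11 ± 0.38 and -0.02 ± 0.22 (SE).

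The interferon-inducible CXC ligands, which act through Cxcr3, also had lower means in the knockout, and none passed. Cxcl9 (probe set 17449710) was 8.06 in knockout 1 and 5.81 in knockout 2, and 7.54, 8.17 and 6.66 in wild type 1 to 3. Here too the arrays of run 2 were lowest, and knockout 1 lay near wild type 2. The difference of -0.52 ± 0.91 (SE) was 0.21 within run 1 and -0.85 within run 2. Cxcl10 ranged from 5.15 in wild type 3 to 6.13 in wild type 2, and Cxcl11 from 4.68 in knockout 2 to 5.12 in knockout 1. Their differences were -0.08 ± 0.34 and -0.04 ± 0.17 (SE).

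**Figure D2:**
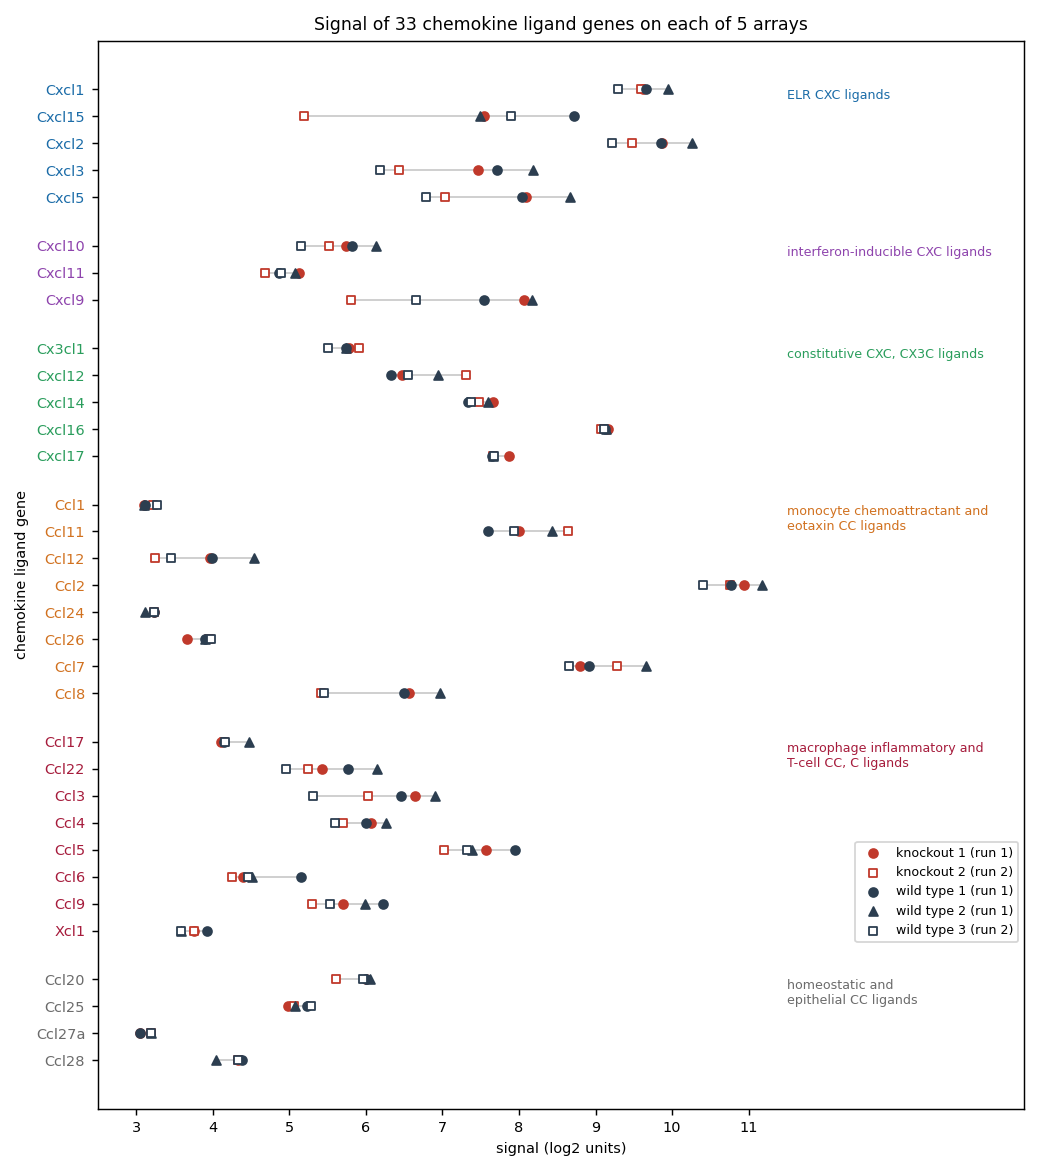
Log2 signal (horizontal axis) of each of the 33 ligands (vertical axis, coloured by class) on each array; red symbols are knockout, dark symbols wild type, open squares the arrays of run 2. The open squares lie leftmost in Cxcl3, Cxcl5, Cxcl9 and Ccl8, and knockout 2 stands alone at 5.19 in Cxcl15; positions of different genes are not comparable levels.

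Among the constitutive ligands, the knockout mean was the higher one for 4 of 5, with 0 called. Cx3cl1, the membrane-anchored fractalkine, read 5.78 and 5.91 in the knockout and 5.74, 5.74 and 5.51 in the wild type (probe set 17504130). Both knockout arrays were highest, but knockout 1 exceeded wild type 1 and 2 by 0.05 only, and the difference was 0.19 ± 0.10 (SE; limma adjusted p = 0.919). Cxcl12, the stromal ligand of Cxcr4, was 6.47 in knockout 1 and 7.30 in knockout 2, against 6.33, 6.95 and 6.56 in the wild type (probe set 17462149). Knockout 2 was highest and knockout 1 second lowest, with a difference of 0.28 ± 0.35 (SE), -0.16 within run 1 and 0.75 within run 2. Cxcl14 differed by 0.13 ± 0.12 and Cxcl17 by 0.11 ± 0.07. Cxcl16, a transmembrane ligand of Cxcr6, varied least of all ligands, from 9.07 to 9.17.

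The monocyte chemoattractants and eotaxins split in their array pattern. Ccl8 (probe set 17254065) read 6.57 in knockout 1 and 5.42 in knockout 2, and 6.50, 6.97 and 5.45 in the wild type, so the arrays of run 2 were over 1 log2 unit below the others. Ccl12 (17254059) read 3.96 and 3.25, then 4.00, 4.54 and 3.46, with the same arrays lowest. These are low signals, above the array medians of 4.24 to 4.29 on wild type 2 only. Their genotype differences were -0.31 ± 0.64 and -0.39 ± 0.43 (SE).

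Ccl7 and Ccl11 did not follow them. Ccl7 (probe set 17254047), a monocyte chemoattractant, was 8.80 and 9.29 in the knockout and 8.92, 9.66 and 8.65 in the wild type. Ccl11 (17254053), the eosinophil attractant eotaxin, was 7.99 and 8.64, against 7.59, 8.44 and 7.93. For both genes knockout 2 lay above knockout 1 and wild type 2 above the other wild-type arrays. The differences were -0.03 ± 0.38 and 0.33 ± 0.36 (SE), the latter the highest mean difference of any ligand. Ccl2, the main ligand of Ccr2, ranged from 10.40 in wild type 3 to 11.17 in wild type 2, with knockout arrays at 10.94 and 10.76. Ccl1, Ccl24 and Ccl26, with low signals, spanned 0.12 to 0.32 log2 units over the arrays.

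The macrophage inflammatory and T-cell ligands had a lower knockout mean in 6 of 8 genes, and none passed. Ccl3 (probe set 17266967), a macrophage inflammatory protein, was 6.64 and 6.03 in the knockout and 6.45, 6.90 and 5.31 in the wild type. Wild type 3 was lowest by 0.73, and the difference was 0.11 ± 0.59 (SE). Ccl22 (17504122), a ligand of Ccr4, was 5.43 and 5.24 against 5.77, 6.14 and 4.95, with wild type 3 lowest again and wild type 2 highest (-0.28 ± 0.41, SE).

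Ccl9 and Ccl6, both ligands of Ccr1, were highest in wild type 1. Ccl9 (probe set 17266952) read 5.70 and 5.29 in the knockout and 6.23, 5.99 and 5.53 in the wild type, and its groups overlapped through wild type 3. Ccl6 (17266960) read 4.40 and 4.25 against 5.15, 4.51 and 4.47, with no overlap, although knockout 1 and wild type 3 were close. The differences were -0.42 ± 0.27 and -0.39 ± 0.26 (SE; limma adjusted p = 0.919 for each). Ccl5 ranged from 7.02 in knockout 2 to 7.95 in wild type 1, Ccl4 from 5.60 in wild type 3 to 6.26 in wild type 2, Ccl17 from 4.10 to 4.47 and Xcl1 from 3.58 to 3.92.

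Of the homeostatic and epithelial CC ligands 4 were measured. Ccl25 (probe set 17498830), the ligand of Ccr9, read 4.98 and 5.06 in the knockout and 5.23, 5.08 and 5.29 in the wild type. Both knockout arrays were lowest, though knockout 2 was close to wild type 2, and the difference was -0.18 ± 0.08 (SE; limma adjusted p = 0.919). Its unadjusted p of 0.0859 was the smallest of the family. Ccl20 (17214857), an epithelial ligand of Ccr6, read 6.001 and 5.61 against 6.001, 6.05 and 5.97. Knockout 2 was low and wild type 3 just below the other arrays (-0.20 ± 0.13, SE). Ccl28, which draws antibody-secreting cells to mucosal glands, lay between 4.04 and 4.38, and Ccl27a between 3.05 and 3.20. A second Ccl27a probe set lay between 2.60 and 2.64. A further 33 probe sets carry several symbols, among them copies of Ccl19, Ccl21 and Ccl27, and were left out because their signal cannot be given to 1 gene.

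The order of the arrays set the runs apart for more ligands than it did the genotypes. Both arrays of run 2 were below all 3 of run 1 for 16 of the 33 ligands, against 9.82% of all genes. No smallest gap was set, and the 16 include Cxcl16, at 9.115 in wild type 3 and 9.124 in wild type 1. They were above for Ccl1 and Ccl26, against 8.57%. Many genes have tied values, and a tie between arrays of different runs counts as overlap. The background was higher among the 6930 genes with 5 different values, at 23.6%. There 15 of 25 ligands had both arrays of run 2 lowest. Median centring, which lowers run 2 and breaks ties, gave 17 ligands and 39.6% of all genes. Quantile normalisation gave 15 ligands and 24.2% of genes. These settings were added after seeing the data, and the excess over the background is smaller under both. The lowest value fell on wild type 3 for 11 ligands (15.3% of genes) and on knockout 2 for 10 (22.5%), and the highest on wild type 2 for 15 (15.4%). Wild type 3 was below both other wild-type arrays for 19 ligands (57.6%), against 25.2% of all genes. Knockout 2 was below knockout 1 for 21 ligands (63.6%), against 38.4%.

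These genotype-specific contrasts use separate arrays. In both, run 2 was below run 1 for 20 ligands (60.6%) and 21.4% of all genes, and above it for 4 ligands and 21.4%. With the genotype in the model, the fitted median of run 2 minus run 1 was -0.23 log2 units for the ligands and 0.00 for all genes. It was -1.65 ± 0.40 (SE) for Cxcl9, -1.45 ± 0.29 for Cxcl3, -1.35 ± 0.29 for Cxcl5, -1.22 ± 0.19 for Ccl8 and -1.05 ± 0.29 for Ccl3. None of the ligands passed limma's test for the run, with a smallest adjusted p of 0.449 and 0% of genes called. At an unadjusted p under 0.05 there were 9 ligands (27.3%), against 8.42% of genes. When the run entered the fit as a fixed term, the genotype differences of Ccl4, Cxcl1, Cxcl2, Cxcl10 and Cxcl16 turned to values between 0.0014 and 0.03.

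**Figure D3:**
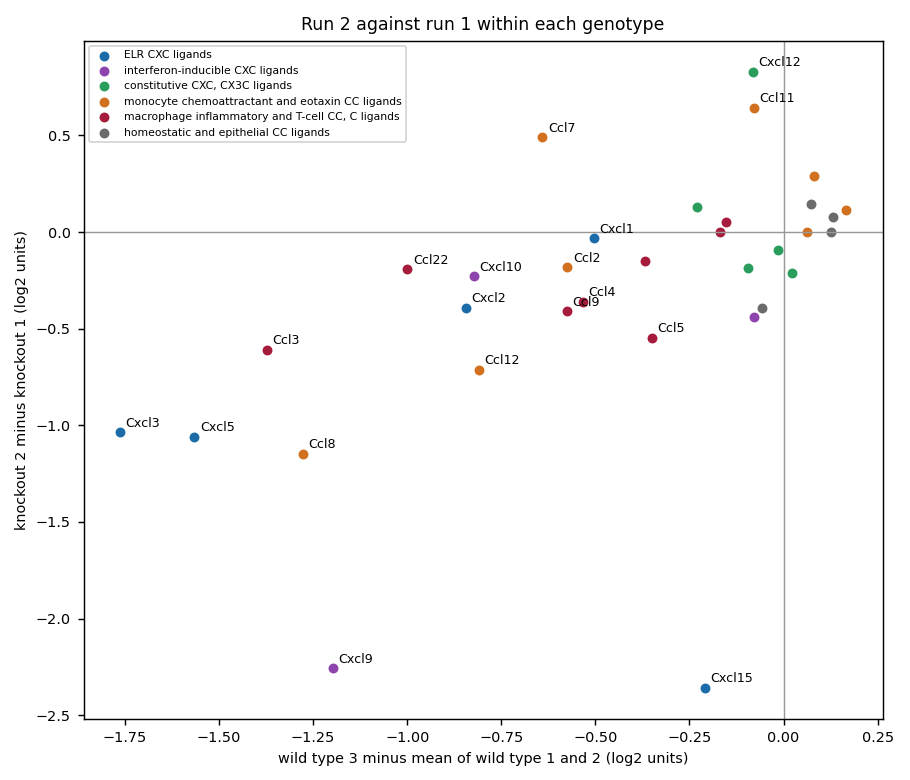
Wild type 3 minus the mean of wild type 1 and 2 (horizontal axis) against knockout 2 minus knockout 1 (vertical axis), both in log2 units, 1 point per ligand. The lower left holds 20 of the 33 ligands; Cxcl3 lies at -1.76 and -1.04, while Cxcl15 at -0.21 and -2.36 and Cxcl12 at -0.08 and 0.83 stand apart.

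Neighbouring genes did not always share the pattern. In the RefSeq gene order, 23 members lie in 6 clusters with at most 3 other protein-coding genes between neighbours. In the cluster of Cxcl5, Cxcl3, Cxcl15, Cxcl1 and Cxcl2, Cxcl15 was the member without both run 2 arrays lowest. In the cluster of Ccl2, Ccl7, Ccl11, Ccl12, Ccl8 and Ccl1, the arrays of run 2 were lowest for Ccl2, Ccl12 and Ccl8 and highest for Ccl1. In the cluster of Ccl5, Ccl9, Ccl6, Ccl3 and Ccl4 they were lowest for all but Ccl6. Cxcl9 and Cxcl10 shared the pattern, and of Ccl22, Cx3cl1 and Ccl17 it held for Ccl22. In the cluster of Ccl26 and Ccl24, the arrays of run 2 were highest for Ccl26 and overlapped with the others for Ccl24. Cxcl11, the remaining interferon-inducible CXC ligand, was absent from that gene order, so it was given no cluster. Cxcl11 did not have the pattern, at 4.89 in wild type 3 and 4.87 in wild type 1. Of the 11 ligands with the pattern and a promoter in the table, 6 held the NF-kappaB motif shown above, and of the 11 without the pattern 1 did. Ccl20, 1 of the 6, met the pattern narrowly, with wild type 3 at 5.97 against 6.001 in knockout 1 and wild type 1. Cxcl1, also among the 6, met it narrowly too, with knockout 2 at 9.59 against 9.62 in knockout 1. A link between motif and pattern was not tested. Cxcl9, with the largest fitted run difference, and Ccl3, Ccl8, Ccl12 and Ccl22 had the pattern and no match in the window. Cxcl1, Cxcl2 and Cxcl3 are close paralogs in 1 cluster, so these counts are not independent.

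Many receptors read low signals and varied little. Among brighter ones the range over the arrays was 0.95 log2 units for Ccrl2, 0.80 for Ackr1 and 0.71 for Ackr3. It was 0.18 for Cxcr4 and 0.19 for Cx3cr1. Of 24 listed receptors 23 were measured and 0 passed limma's adjusted p of 0.05, with 16 means lower and 6 higher in the knockout, 1 equal, and a median of -0.01. Groups did not overlap for Cxcr2, Ccr4 and Ccr7, all lower, that is 3 of 23 where 2.8% of all genes were lower without overlap. Cxcr2, the receptor of the ELR ligands, was 3.47 and 3.42 in the knockout and 3.57, 3.57 and 3.69 in the wild type (-0.16 ± 0.05, SE; limma adjusted p = 0.919), and was the 1 receptor at an unadjusted p under 0.05 (1.3% of all genes). These are low signals. Ccr7, the receptor of Ccl19 and Ccl21, was 6.37 and 6.20 against 6.87, 6.52 and 6.48 (-0.34 ± 0.15, SE). Ccr4 was 2.62 and 2.79 against 2.81, 2.87 and 2.86. Ackr2, a scavenging receptor, differed by -0.11 ± 0.06, Ccr9 by 0.04 ± 0.03 and Cx3cr1, the receptor of fractalkine, by 0.09 ± 0.06 (SE).

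Without knockout 1, limma called Ccr1, Ccr6 and Cx3cr1, and without knockout 2 it called Ccr1, where 7.92% and 3.76% of all genes were called. The 3 wild-type arrays read alike to the last digit for each of these receptors, so their wild-type SD was 0. No ligand was called with any array left out.

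Some genes listed with the inducers of chemokines were low on the same arrays, and most were not. Of 19 inducing cytokines and receptors, 11 means were higher and 8 lower in the knockout, 0 passed, and both arrays of run 2 were lowest for 7 (9.82% of all genes, 23.6% of those with 5 different values). Interleukin 1 alpha (Il1a) read 5.25 in knockout 1 and 4.71 in knockout 2, and 5.32, 6.14 and 4.50 in the wild type. Tnf and Il6 did not have both arrays of run 2 lowest, and Il6 was highest on knockout 2, at 9.97. Set against its wild-type average, the mean of these 19 genes stood at 0.03 in knockout 1 and -0.10 in knockout 2, and at 0.02, 0.21 and -0.23 in wild type 1 to 3. Of 16 measured NF-kappaB pathway genes, 13 had a higher knockout mean, 0 passed, the median was 0.04 and run 2 was lowest for 3. Tnip1, a feedback inhibitor, differed by 0.23 ± 0.16 and Bcl3 by 0.18 ± 0.15 (SE). Of 8 measured interferon response genes 0 passed, and run 2 was lowest for 4, among them Ifit1 and Isg15, against the same 9.82%.

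The immediate-early genes ran differently, with knockout 2 highest at 0.43 above the wild-type mean and the other arrays between -0.05 and 0.10. All 13 measured had a higher knockout mean and 0 passed; Junb differed by 0.24 ± 0.11 and Ier2 by 0.29 ± 0.14 (SE). Of 11 proteases able to cleave chemokines 0 passed, and in these lists of inducers and proteases Mmp13 was the 1 gene at an unadjusted p under 0.05. Mmp13 was 5.84 and 5.91 against 5.60, 5.55 and 5.77 (0.24 ± 0.08, SE), and Mmp2 differed by 0.46 ± 0.27.

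**Figure D4:**
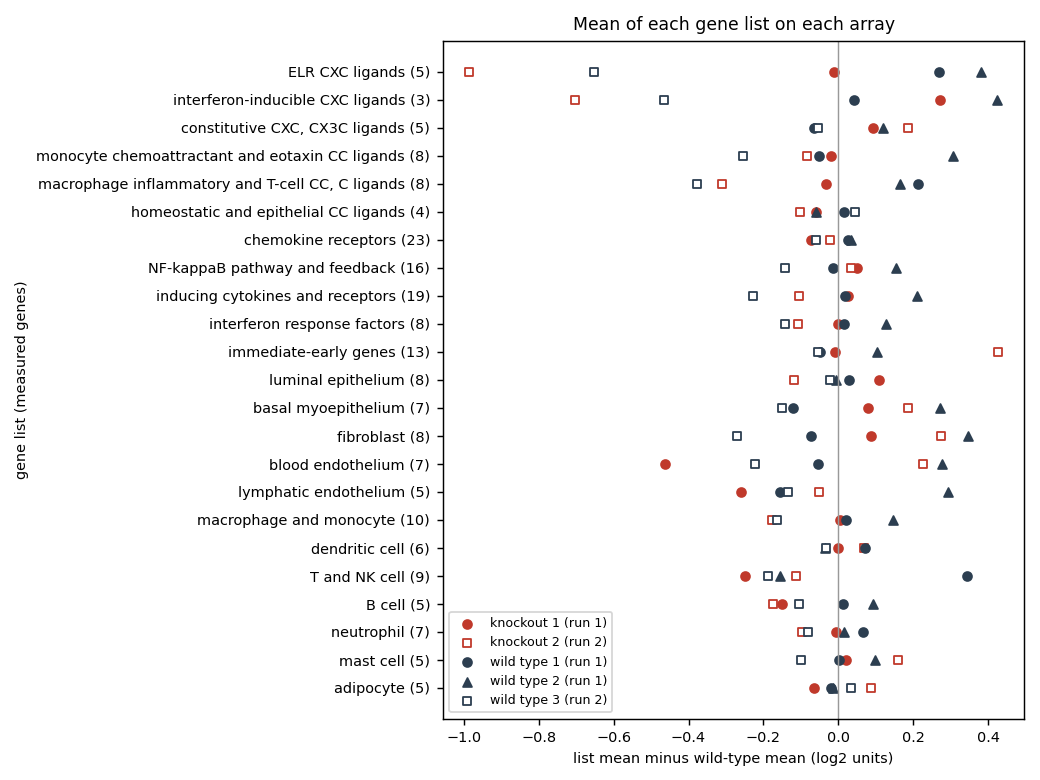
Mean log2 signal of each gene list on each array minus its mean over the 3 wild-type arrays (horizontal axis); lists are on the vertical axis with the number of measured genes. In the ELR ligands knockout 2 (-0.99) and wild type 3 (-0.65) lie left of the other arrays, as do both in the macrophage list at -0.18 and -0.16. Both also lie leftmost in the interferon-inducible, monocyte chemoattractant and macrophage inflammatory ligands. The inducing cytokine, interferon response, neutrophil and luminal lists show this too, and the remaining lists do not. The ELR value of knockout 2 includes Cxcl15, at 5.19 on that array against a wild-type mean of 8.04.

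Some markers of leukocytes were low on the same arrays. The median fitted run 2 minus run 1 was -0.13 for the macrophage and monocyte list and 0.02 for the neutrophil list, against -0.23 for the ligands. For S100a8 alone it was -1.38. The macrophage and monocyte list (10 of 10 measured, 8 lower and 2 higher means in the knockout, 0 called) averaged 5.01 and 4.83 on the knockout arrays and 4.85 to 5.16 on the wild-type arrays. Both arrays of run 2 were lowest for 5 of its 10 genes, against 9.82% of all genes and 23.6% of those with 5 different values. Mrc1, the mannose receptor, was 5.22 and 4.79 in the knockout and 5.22, 5.56 and 4.81 in the wild type. Of 7 neutrophil markers, run 2 was lowest for S100a8, a calcium-binding protein of neutrophils that epithelia can also make, at 8.56 and 7.01 in the knockout and 8.19, 7.91 and 6.80 in the wild type. Run 2 was highest for S100a9, the partner of S100a8, at 5.37 and 6.34 in the knockout and 6.12, 6.12 and 6.23 in the wild type, and for Ly6g, so the list showed no common order. The neutrophil list averaged 4.31 and 4.22 on the knockout arrays and 4.24 to 4.39 on the wild-type arrays. The T and NK cell list averaged 4.05 and 4.18 against 4.11 to 4.64, highest in wild type 1. The ligands highest there were Ccl5, Ccl6, Ccl9, Ccl28, Cxcl15 and Xcl1, while Cxcl9, Cxcl10, Ccl17 and Ccl22 were highest in wild type 2. B cell markers averaged 3.98 and 3.96 against 4.03 to 4.22. Dendritic cell markers lay between 4.51 and 4.62 on average, and mast cell markers between 4.55 and 4.81. The part of these cells in the ligand signals was not tested.

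In the stromal and epithelial lists both arrays of run 2 were lowest for 2 of 8 luminal, 2 of 7 basal and 1 of 8 fibroblast genes. The same held for 1 of 5 adipocyte genes and for 0 in the endothelial and lymph node lists. The background was 9.82% of all genes and 23.6% of those with 5 different values. For these genes the fitted run 2 minus run 1 was -0.58 (Cldn3), -0.14 (Krt18), -0.65 (Krt17), -0.20 (Krt14), -1.09 (Pdgfra) and -0.07 (Lep). Fibroblast markers averaged 8.73 and 8.92 in the knockout and 8.37 to 8.99 in the wild type, with knockout 2 and wild type 2 highest, the arrays on which Ccl7, Ccl11 and Cxcl12 were also highest. Blood endothelial markers averaged 6.61 and 7.29 against 6.85 to 7.35, with the same arrays highest, and lymphatic endothelial markers 4.63 and 4.84 against 4.73 to 5.18. Luminal markers averaged 9.55 and 9.32 against 9.41 to 9.46, lowest on knockout 2 and then on wild type 3. Basal markers averaged 7.83 and 7.94 against 7.60 to 8.02 and adipocyte markers 5.27 and 5.43 against 5.32 to 5.37. The list of lymph node venule and stroma averaged 3.63 and 3.75 against 4.45 to 4.95, a gap that came from Glycam1. Glycam1, a mucin of such venules and of milk, read 4.24 and 4.76 against 10.72, 10.74 and 8.10 (-5.35 ± 1.03, SE, limma adjusted p = 0.919). Madcam1 read 4.22 on every array, and Chst4, Fut7 and Cr2 differed by -0.09, 0.02 and -0.04. The median difference of the list was -0.04.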

How the data were processed

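Signals of 5 arrays (2 knockout, 3 wild type) were used. The authors deposited log2 signals. Per the submitters' processing notes, RMA and limma were used, with no versions listed; RMA corrects background, normalises by quantiles and summarises probes, so arrays share 1 distribution. The genome build behind the array design was not used here. The labels' protocols give 10 ng of total RNA per sample.

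Of 41345 probe sets, the platform annotation gives 1 symbol for 23521, several for 1814, and does not list 16010. For each gene the single-symbol probe set with the highest mean was kept. Knockout minus wild type was fitted over 22180 genes with limma 3.58.1 in R 4.3.3 (two-sided; genotype as the one term), and p-values were adjusted by Benjamini-Hochberg, threshold 0.05; the SE is limma's moderated SE. The code was tested on simulated data. The run of array numbers was fitted beside the genotype, a test chosen after seeing the data.

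Replicate numbers are those of the labels. All 33 members are named. Values on every array are given for those whose groups do not overlap, the 12 with the largest range and the 6 with the largest moderated t; other lists give a few genes with the largest t or defining markers. Il1a, Il6, Il33, Tnf, Mrc1, S100a8, S100a9, Ly6g, Ifit1, Isg15, Pf4, Tslp, Ccrl2, Ackr1, Ackr3 and Cxcr4 were named after their values were seen. So were Cldn3, Krt18, Krt17, Pdgfra and Lep. Members and lists were chosen with earlier results of these data known. 1 further family symbol is not reported here. Promoters and gene order came from RefSeq tables (GRCm38.p6); 2 members had several promoters, and the first was used.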

Additional observations from a re-analysis of the deposited data

How the results depend on the processing

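No ligand passed limma's test under any alternative. By size alone, 1 ligand (Cxcl15) had means 1.5-fold apart. By limma's adjusted p, 0 receptors were called with all arrays (1 at an unadjusted p of 0.05) and 0 to 3 with 1 array left out. Ligands whose groups do not overlap numbered 3, became 5 after quantile normalisation (5.43% of all genes before, 13.4% after) and 17 within run 1 (46.6% of all genes), and ranged from 5 to 14 with 1 array left out, where fewer arrays make separation easier (9.01% to 46.3% of all genes). The count of ligands lowest on run 2, whose alternatives were chosen after seeing the data, was 15 after quantile normalisation (24.2% of all genes), 17 after median centring (39.6%) and 16 to 19 with 1 array left out (12.4% to 26% of all genes).

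Of the 33 ligand differences, none called, 11 kept their sign under the alternatives run and 22 changed it under at least 1. With the replicate number as a block, no ligand or receptor was called and the median was -0.19. Ccl1 (0.055), Ccl2 (-0.12) and Ccl3 (-0.34) changed sign. The deviations correlated at 0.25 for number 1 and -0.04 for number 2. Those of the 2 knockout arrays mirror each other, so these correlations cannot decide whether the numbers pair the samples. Array weights turned Ccl1 to 0.014. The run as a fixed block gave 0.012 for Ccl4, 0.026 for Cxcl1, 0.018 for Cxcl10, 0.0017 for Cxcl16 and 0.0014 for Cxcl2. Within run 1 the sign changed for Ccl11 (-0.019), Ccl2 (-0.029), Ccl3 (-0.039), Cxcl11 (0.15), Cxcl12 (-0.16), Cxcl16 (0.035) and Cxcl9 (0.21). Within run 2 it changed for Ccl22 (0.29), Ccl4 (0.11), Ccl7 (0.64), Cxcl1 (0.30), Cxcl10 (0.36), Cxcl17 (-0.015), Cxcl2 (0.26), Cxcl3 (0.25) and Cxcl5 (0.24). The cause was not tested.

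With 1 array left out, the differences whose sign changed ranged as follows: Ccl1 (-0.058 to 0.056), Ccl2 (-0.12 to 0.27), Ccl26 (-0.26 to 0.026), Ccl27a (-0.098 to 0.048), Ccl28 (-0.022 to 0.15), Ccl3 (-0.34 to 0.46), Ccl4 (-0.25 to 0.12), Ccl5 (-0.54 to 0.010), Ccl7 (-0.28 to 0.26), Ccl8 (-0.89 to 0.26), Cxcl1 (-0.19 to 0.13), Cxcl10 (-0.35 to 0.14), Cxcl11 (-0.26 to 0.18), Cxcl12 (-0.14 to 0.70), Cxcl16 (-0.053 to 0.040), Cxcl2 (-0.39 to 0.13), Cxcl3 (-0.9977 to 0.11), Cxcl5 (-0.80 to 0.26) and Cxcl9 (-1.65 to 0.60).

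Without dim genes, 5 ligands were not tested. Of the alternatives, quantile normalisation, median centring, the mean of probe sets, the intensity trend, robust moderation and the run as a random block changed no sign. With 2 against 3 arrays, and a median SE of 0.26, differences of the size seen in most ligands could not be told from the spread.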

Other observations

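Pf4, a platelet chemokine whose symbol falls outside the family pattern, read 6.33 in knockout 1 and 4.54 in knockout 2, and 5.90, 5.90 and 4.98 in wild type 1 to 3. The arrays of run 2 were lowest here as well. Tslp, an epithelial cytokine that acts on dendritic cells, read 8.05 and 6.72 in the knockout and 8.34, 8.09 and 7.06 in the wild type, with the same arrays lowest. Il33, an alarmin of epithelial and stromal cells, read 7.53 on every wild-type array and 7.63 in knockout 1, and 6.49 in knockout 2 alone, as Cxcl15 was low in knockout 2 alone. These genes were picked after their values were seen, and none passed limma's test at an adjusted p of 0.05 (0.919 to 1.00).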
